A study of Arabidopsis thaliana with 12 samples.

Results

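The tau and phi classes of glutathione transferases were followed as a set of 37 genes, 28 of the tau class (GSTU1 to GSTU28) and 9 of the phi class (GSTF2, GSTF3, GSTF6 to GSTF11 and GSTF14), among the 33655 features counted in seedlings of Arabidopsis thaliana. The rule takes them by gene identifier and name and uses no measured value, though the set was picked with earlier results of these data known. Of the 37, 33 had enough counts to be tested, 25 of the tau class and 8 of the phi class, among 17841 tested genes. The 4 that did not pass the filter on low counts were GSTU14, GSTU15, GSTU21 and GSTF14. Other phi genes (GSTF4, GSTF5 and GSTF13) were counted with the other glutathione transferase classes, and GSTF12 was not in the set.

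Glutathione transferases join the tripeptide glutathione to reactive, electrophilic molecules, which makes these more soluble and marks them for removal. The tau and phi classes are the large, plant-enriched classes, and many of their genes lie in tandem arrays. They are known for induction by herbicides, safeners, oxidised lipids and pathogens, in part through TGA transcription factors that bind promoter elements of the as-1 type, and the conjugates are carried into the vacuole by transporters of the ABCC family. Some members act in metabolism instead, among them enzymes placed in camalexin and glucosinolate synthesis, and some bind ligands such as auxin without modifying them.

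Expression was measured in whole seedlings, 6 days old, by 3′ Tag-Seq, a method that reads each transcript near its 3′ end, so that a gene's count does not grow with transcript length. Seedlings of the wild type, Col-0, and of spaQ were grown for 5 days at 22 °C under white light after 3 days of stratification. They were then held at 22 °C (cool) or moved to 28 °C (warm), with 3 libraries in each of the 4 groups of genotype and temperature. The treatment lasted 4 h by the sample protocols but 24 h by the series text, and the data do not settle which. spaQ is a quadruple mutant of SPA1 to SPA4, whose products form the light-regulated ubiquitin ligase with COP1. The alleles are not stated in the labels, and spaQ is represented by 1 line. The comparisons ask how these genes respond to warmth in each genotype, how the genotypes differ at each temperature, and whether the warm response differs between genotypes.

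Libraries held 2609808 to 9390725 counts, and 3 counts of a library, taken as the detection floor, amounted to 0.279 to 1.25 CPM, a unit that sets all libraries to one size. The CPM used here include TMM factors, which correct for differences in library composition. Floors cover counting error only, since the libraries carry no stated molecular identifiers and reads may be copies of 1 molecule. SPA1, SPA2 and SPA3 were lower in spaQ at both temperatures (log2 fold changes from −1.69 to −0.92) and SPA4 was higher (1.19 and 1.32), all called by edgeR. The labels do not say that replicates came from separate cultures, so p-values measure the spread between these libraries. Replicate 1 of cool spaQ and replicate 2 of warm spaQ stood apart from their groups in root markers, and counts of called members, with the members whose calls change, are also given without them. The root score of a library is the mean log2 CPM of 17 root markers. It was 4.19 to 4.39 in cool Col-0 and 2.01 to 2.12 in warm Col-0. In cool spaQ it was 3.30 in replicate 1 and 1.99 and 2.23 in the others, and in warm spaQ it was 3.31 in replicate 2 and 1.57 and 1.70 in the others. In bulk tissue, fewer cells of a type and less RNA per cell cannot be told apart.

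In cool Col-0, the reference state, the set was dominated by a few genes. Of the 37 members, 7 had a mean of at least 100 CPM, 14 lay between 10 and 100 CPM, 11 between 1 and 10 CPM and 5 under 1 CPM. Among the most abundant were GSTF9, a phi enzyme linked to redox balance, with 832, 817 and 767 CPM, and GSTU19, a safener-inducible tau enzyme, with 671, 599 and 688 CPM. GSTF8, known for its stress-responsive promoter, had 498, 466 and 475 CPM. At the other end, GSTU15 had 0 counts in all 12 libraries, and GSTU3, with 0 counts in the 3 cool Col-0 libraries, lay under their floors of 0.671 to 0.905 CPM.

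All members together summed to 3677 ± 55.3 CPM in cool Col-0 (SD, n = 3) and 11778 ± 1812 CPM in warm Col-0. The sum was 13009.6 ± 2959 CPM in cool spaQ and 12822 ± 5958 CPM in warm spaQ. Replicate 2 of warm spaQ held 5997 CPM, and replicates 1 and 3 held 15489 and 16981 CPM. The phi class held most of the difference. Its 9 genes summed to 1777 to 1886 CPM in cool Col-0, 6648 to 9666 CPM in warm Col-0 and 7830 to 12311 CPM in cool spaQ, and to 10970.3, 3411 and 13363 CPM in warm spaQ replicates 1, 2 and 3. The 28 tau genes summed to 1763 to 1901, 2859 to 3661, 2009 to 3389 and 2586 to 4519 CPM in the same order of groups. GSTF2, GSTF6 and GSTF7 were grouped after their values were seen, as the phi members that changed most together. They alone made up 5.89% to 6.60% of the members' sum in cool Col-0, but 39.2% to 50.7% in warm Col-0. Their share was 52.0% to 57.9% in cool spaQ and 26.5% to 61.4% in warm spaQ.

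**Figure D1:**
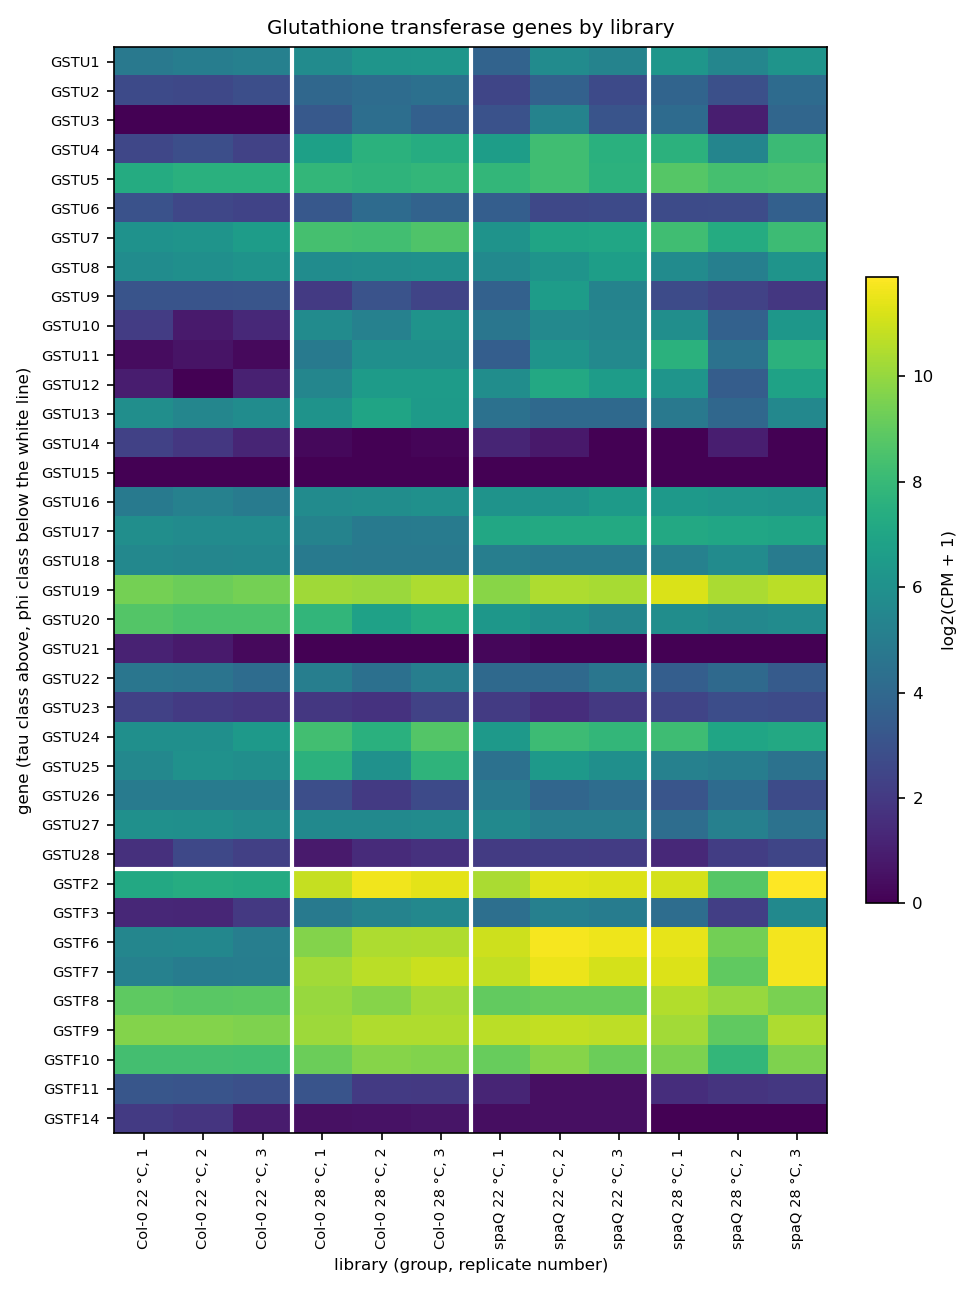
Level of each member in each of the 12 libraries, as log2(CPM + 1), with members in rows and libraries in columns by group. GSTF2, GSTF6 and GSTF7 are low in the 3 cool Col-0 libraries and high in the others, and replicate 2 of warm spaQ is the lowest of its group for them.

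Most tested members were higher in warm than in cool Col-0. By edgeR's quasi-likelihood test, called at a Benjamini-Hochberg adjusted p under 0.05 over all tested genes, 26 of 33 tested members changed, against 40.8% of all genes, 21 of them higher and 5 lower at 28 °C. For single directions the shares of all genes were 18.9% higher and 21.9% lower. The median log2 fold change was 1.07 over tested members and −0.02 over all genes. Of the tau class 14 rose and 5 fell (median 0.86), and of the phi class 7 rose and the remaining gene, GSTF11, was not called (median 2.66). The groups did not overlap for 28 tested members, against 59.5% of all genes, and 20 of the called members changed at least 2-fold. The filter asks for 2.85 CPM, before TMM, in at least 3 libraries, and GSTU3, GSTU10, GSTU11, GSTU12 and GSTF3 reached that level in at most 1 cool Col-0 library and GSTU28 in 0 warm Col-0 libraries. Such genes met the filter through groups in which they were higher, so the counts and medians describe the 33 members and are not support for a rise of the classes. In spaQ the same comparison called 4 of 33 members, against 12.4% of all genes, and the median was −0.09. GSTU5, GSTU7 and GSTF8 rose there and GSTU9 fell. The share of all genes was 6.55% for higher and 5.87% for lower, and the spaQ groups did not overlap for 7 members, against 25.6% of all genes. The spaQ count depended on 1 library, since 13 members were called without replicate 2 of warm spaQ, against 22.1% of all genes, and 11 were called with replicate 1 of cool spaQ left out as well, against 14.9%. The added members in the first fit were GSTU1, GSTU2, GSTU10, GSTU11, GSTU13 and GSTU19, all higher, and GSTU26, GSTU27 and GSTF9, all lower, while GSTU5 was not called without replicate 1 of cool spaQ. In Col-0 leaving out both added GSTU5 and GSTU22 as higher (28 members, against 48% of all genes). When the 6 spaQ libraries were fitted by themselves, edgeR called 0 members, against 2.64% of all genes, with 6 at an unadjusted p under 0.05, and DESeq2, fitted to all 12 libraries, called 4.

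**Figure D2:**
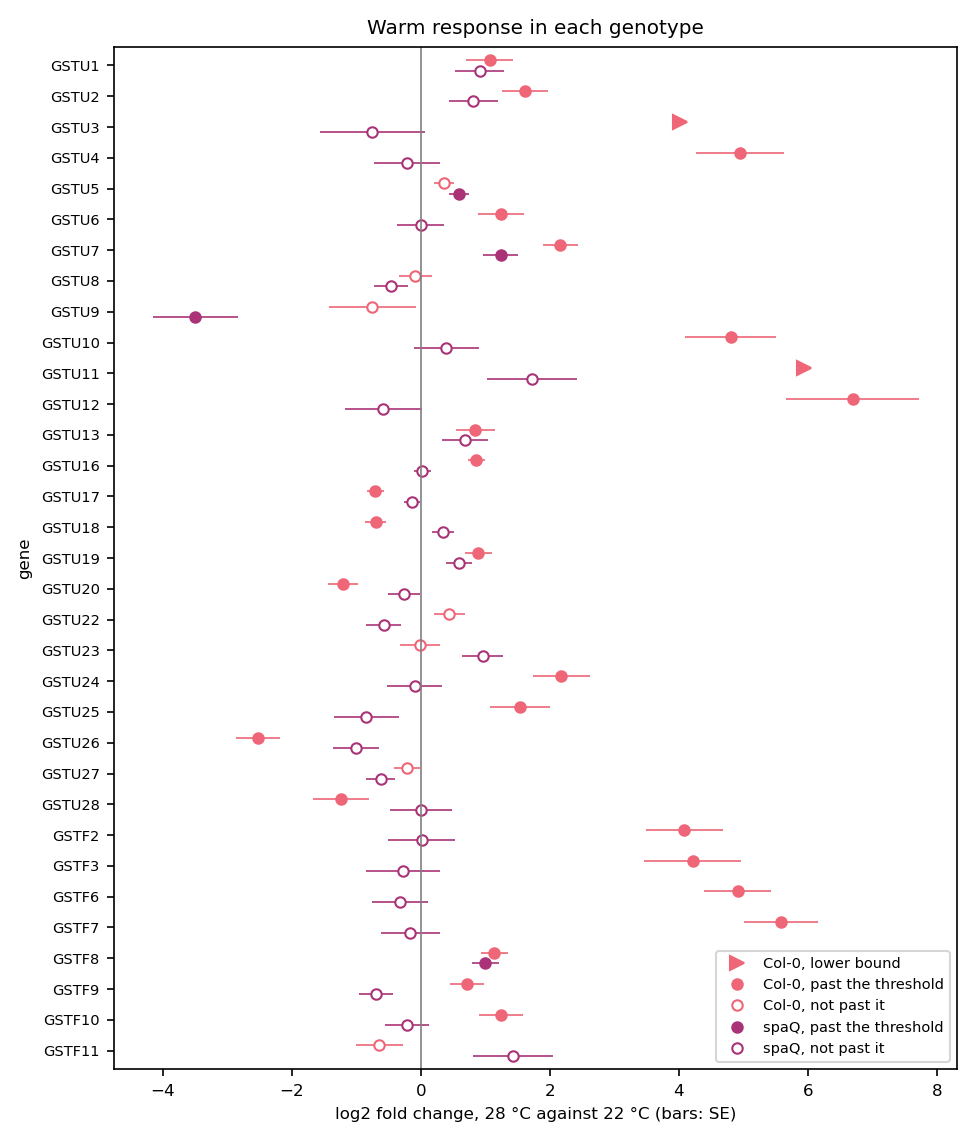
Log2 fold change from 22 °C to 28 °C of each tested member in Col-0 and in spaQ, with bars of 1 SE, and triangles for the lower bounds of GSTU3 and GSTU11 in Col-0. Most Col-0 points lie above 0, with a median of 1.07, and the spaQ points lie around 0, with a median of −0.09.

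GSTF6 (AT1G02930) and GSTF7, neighbouring genes in the RefSeq annotation, had the largest changes among abundant members. GSTF6 is the enzyme placed in the synthesis of camalexin, the main phytoalexin of Arabidopsis. It had 42.5, 44.2 and 33.3 CPM in cool Col-0, 824, 1382 and 1407 CPM in warm Col-0, 2020.2, 3403 and 3041 CPM in cool spaQ and 2767, 649 and 3333 CPM in warm spaQ. All 9 libraries outside cool Col-0 lay far above it, and replicate 2 of warm spaQ was the lowest of the 9. The log2 fold change was 4.91 with warmth in Col-0 (SE 0.52, adjusted p 3.4e-05) and −0.33 in spaQ (SE 0.43, adjusted p 0.68). In spaQ against Col-0 it was 6.14 at 22 °C (SE 0.55, adjusted p 5.5e-06) and 0.90 at 28 °C (SE 0.43, adjusted p 0.14). Without replicate 2 of warm spaQ the difference at 28 °C was 1.31 and was called. The changes given here for this and other members are log2 fold changes from edgeR, each with its SE and adjusted p. The warm response of Col-0 and the genotype contrast at 22 °C share the 3 cool Col-0 libraries.

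GSTF7 (AT1G02920) followed the same order of groups. It had 36.8, 30.5 and 32 CPM in cool Col-0 and 1198, 1599.9 and 1961 CPM in warm Col-0. In spaQ it had 1769, 3016 and 2245 CPM at 22 °C and 2481, 507 and 3293 CPM at 28 °C. Cool Col-0 overlapped none of the other groups, while warm spaQ overlapped both cool spaQ and warm Col-0. GSTF7 rose by 5.58 on the log2 scale with warmth in Col-0 (SE 0.57, adjusted p 2.8e-05), and it was higher by 6.15 in cool spaQ than in cool Col-0 (SE 0.58, adjusted p 9e-06). The genes are close copies: 10.6% of the 50-nt stretches in the last 500 nt of GSTF6 transcripts also occur in GSTF7, so part of the reads of one may have been lost or counted for the other.

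GSTF2 (AT4G02520) and GSTF3 are a second pair of similar phi genes. GSTF2 encodes a protein that binds auxin and indole-derived ligands, and it was the most abundant member on average. It had 144, 164 and 151 CPM in cool Col-0 and 1817, 3217 and 2758 CPM in warm Col-0, 1329.8, 2670.3 and 2449 CPM in cool spaQ and 2261, 436 and 3808 CPM in warm spaQ. Again the 3 cool Col-0 libraries were lowest, and replicate 2 of warm spaQ was the next lowest. Its change with warmth in Col-0 was 4.08, SE 0.59, adjusted p 0.00021, and its difference between the genotypes at 22 °C was 3.81, SE 0.59, adjusted p 0.0003. GSTF2 overlaps a gene on the other strand, TOC159, and the strand setting of the counting is not given in the sources used here. Reads of the pair could therefore not be told apart if strand was ignored.

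GSTF3 (AT2G02930) was a minor gene in every group. It had 1.51, 1.4 and 2.91 CPM in cool Col-0, 28.4, 39.1 and 46 CPM in warm Col-0, 19.2, 35.6 and 31.3 CPM in cool spaQ and 17.8, 3.67 and 48.5 CPM in warm spaQ. The value of warm spaQ replicate 2 was nearest to cool Col-0. GSTF3 reached the filter's level in only 1 cool Col-0 library, so it is given with no test against cool Col-0. Its mean was 1.94 ± 0.842 CPM in cool Col-0 (SD, n = 3), 37.8 ± 8.83 CPM in warm Col-0 and 28.7 ± 8.53 CPM in cool spaQ.

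GSTF9 (AT2G30860) and GSTF10 (AT2G30870), also neighbours, started high and moved less. GSTF9 had 1126, 1407 and 1437 CPM in warm Col-0, against 767 to 832 CPM in the cool group, 1606, 1774 and 1663 CPM in cool spaQ and 1227, 510.5 and 1372 CPM in warm spaQ. The cool Col-0 libraries lay below those of warm Col-0 and of cool spaQ, while in spaQ the warm libraries all lay below the cool ones. The rise with warmth in Col-0 (0.72, SE 0.26, adjusted p 0.045) was near the threshold, and it was not called in 7 of the 12 fits that leave out 1 library. In cool spaQ GSTF9 was higher than in cool Col-0 (1.06, SE 0.26, adjusted p 0.0064). GSTF10, named here after its values were seen, had 320.2, 326 and 308 CPM in cool Col-0 and 597, 856 and 799.5 CPM in warm Col-0. In spaQ it had 567, 856 and 593 CPM at 22 °C and 741, 231 and 772 CPM at 28 °C. Its values in warm Col-0 and cool spaQ lay above all of cool Col-0, and both differences were called (adjusted p 0.011 and 0.022). The difference at 22 °C was not called when any cool Col-0 library or replicate 2 of cool spaQ was left out. GSTF10 overlaps a gene on the other strand.

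GSTF8 (AT2G47730) responded to warmth in both genotypes. It had 1050.4, 859 and 1254 CPM in warm Col-0, 517, 555 and 565 CPM in cool spaQ and 1474, 1072 and 734 CPM in warm spaQ. Both warm groups lay above both cool groups with no overlap, and cool spaQ lay slightly above cool Col-0. The change was 1.14, SE 0.21, adjusted p 0.00091 in Col-0 and 1.0, SE 0.21, adjusted p 0.009 in spaQ, and neither genotype contrast was called (0.19 and 0.05, adjusted p 0.49 and 0.89). The difference between the warm responses was −0.14 (adjusted p 0.82). When the 6 spaQ libraries were fitted by themselves, the rise in spaQ was not called (edgeR, adjusted p 0.074). GSTF8 overlaps another annotated gene on the same strand. GSTF11 (AT3G03190), an enzyme placed in the synthesis of aliphatic glucosinolates and also named after its values were seen, went the other way between genotypes. It had 8.14, 7.55 and 6.49 CPM in cool Col-0 and 1.35, 0.383 and 0.417 CPM in cool spaQ, lower with no overlap. GSTF11 met the filter through Col-0 alone, so no test of this difference is given. The end of its transcript lies wholly within NAC045 on the other strand, so these few reads may belong to either gene.

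Among the tau genes, GSTU1 to GSTU7 form an array in RefSeq's gene order, with 3 other genes between them, but they did not move as one. GSTU4 (AT2G29460) showed the largest change in the array with values well above the floor. It had 4.82, 6.15 and 4.03 CPM in cool Col-0, 106, 190.4 and 165 CPM in warm Col-0, 98.7, 304 and 187 CPM in cool spaQ and 196, 42.1 and 271 CPM in warm spaQ. Cool Col-0 lay under all other libraries, and warm spaQ replicate 2 was the lowest of the rest. The change was 4.95, SE 0.68, adjusted p 0.00014 with warmth in Col-0, and 5.29, SE 0.69, adjusted p 8.5e-05 between genotypes at 22 °C.

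GSTU3 (AT2G29470) is given by its levels and bounds, with no test, since it passed the filter only through the groups in which it was present. Its cool Col-0 libraries had 0 counts, and it reached 9.01, 18.5 and 11.5 CPM in warm Col-0, 7.06, 39.1 and 7.51 CPM in cool spaQ and 17, 0.978 and 14.1 CPM in warm spaQ. Against the mean floor of the cool Col-0 libraries, the warm Col-0 mean was at least 16.2-fold higher. The cool spaQ mean, which leans on replicate 2, was at least 22.2-fold higher. Replicate 2 of warm spaQ, at 0.978 CPM, was close to its own floor of 0.734 CPM.

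GSTU7 (AT2G29420), at one end of the array, and GSTU5 (AT2G29450) rose with warmth in spaQ. GSTU7 had 65.4, 70.7 and 94.9 CPM in cool Col-0, 329, 315 and 393 CPM in warm Col-0, 68.1, 123 and 129 CPM in cool spaQ and 308, 161 and 279.9 CPM in warm spaQ. Warm libraries lay above cool ones in both genotypes, with 2.16, SE 0.27, adjusted p 8.6e-05 in Col-0 and 1.24, SE 0.27, adjusted p 0.011 in spaQ. The difference of the responses was −0.93 (SE 0.37, adjusted p 0.13), which the test did not call. GSTU5, described as auxin-inducible, had 159, 184 and 189.5 CPM in cool Col-0 and 236, 212 and 235 CPM in warm Col-0, and 233, 308 and 201 CPM and 432, 335 and 355 CPM in cool and warm spaQ. It was higher in spaQ than in Col-0 at both temperatures (22 °C: 0.48, SE 0.16, adjusted p 0.026, 28 °C: 0.71, SE 0.15, adjusted p 0.0035), with no overlap, and rose with warmth in spaQ (0.60, SE 0.16, adjusted p 0.026). The rise was not called when any of 3 spaQ libraries was left out, and the difference at 22 °C was not called with library totals, without replicate 1 of cool Col-0 or without replicate 2 of cool spaQ. GSTU1, GSTU2 and GSTU6, the other members of the array, rose with warmth in Col-0 and were called in no other comparison. GSTU2, GSTU6 and GSTU7 overlap genes on the other strand.

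GSTU10, GSTU11 (AT1G69930) and GSTU12 (AT1G69920) were near the floor in cool Col-0 and present in every other group, and passed the filter only through those. They are therefore given by their levels, with no test against cool Col-0. GSTU12 had 0.905, 0 and 1.12 CPM in cool Col-0, 43.4, 92.2 and 91.7 CPM in warm Col-0, 56.5, 143 and 95.5 CPM in cool spaQ and 71.7, 10.3 and 115 CPM in warm spaQ. Its mean was 0.674 ± 0.594 CPM in cool Col-0 (SD, n = 3), 75.8 ± 28 CPM in warm Col-0 and 98.3 ± 43.3 CPM in cool spaQ. The 3 cool Col-0 libraries lay below all 9 others, and replicate 2 of warm spaQ was the lowest of those. GSTU11, beside GSTU12 in the gene order, had 1, 2 and 1 counts in cool Col-0. It reached 28.4, 60.6 and 58.9 CPM in warm Col-0, 10.8, 70.5 and 48 CPM in cool spaQ and 191, 21.5 and 199 CPM in warm spaQ. Against the floor its group mean was at least 61.3-fold higher in warm Col-0 and at least 53.5-fold higher in cool spaQ. These bounds are for the means, and replicate 1 of cool spaQ, at 10.8 CPM, lay well under its group mean. The 2 replicates of warm spaQ other than replicate 2 held the highest GSTU11 levels of the series.

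GSTU10 (AT1G74590) had 3.32, 0.839 and 1.57 CPM in cool Col-0, 52.2, 36.7 and 67 CPM in warm Col-0, 24.4, 46.7 and 42.9 CPM in cool spaQ and 58.6, 12 and 78.3 CPM in warm spaQ. Every library outside cool Col-0 exceeded it. The mean of GSTU10 was 1.91 ± 1.27 CPM in cool Col-0 (SD, n = 3), 52 ± 15.2 CPM in warm Col-0 and 38 ± 12 CPM in cool spaQ. GSTU10 overlaps annotated genes on both strands.

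GSTU24 (AT1G17170), GSTU25 (AT1G17180) and GSTU26 (AT1G17190) lie side by side and split. GSTU24 and GSTU25 encode enzymes known for conjugating the explosive trinitrotoluene. GSTU24 had 58.8, 59 and 85.9 CPM in cool Col-0, 317, 186 and 420.4 CPM in warm Col-0, 84.9, 286 and 233 CPM in cool spaQ and 293, 128 and 143 CPM in warm spaQ. Warm Col-0 lay above cool Col-0 (2.18, SE 0.44, adjusted p 0.0019), while replicate 1 of cool spaQ lay within the range of cool Col-0, and the genotypes at 22 °C differed by 1.55, SE 0.44, adjusted p 0.013, a call that was lost without replicate 2 of cool spaQ. GSTU25 had 45.2, 63.5 and 57.1 CPM in cool Col-0, 197, 63.7 and 216 CPM in warm Col-0, 20.7, 86.6 and 58.8 CPM in cool spaQ and 36.8, 32.3 and 21.2 CPM in warm spaQ. All warm spaQ libraries lay below all of warm Col-0 (−2.42, SE 0.49, adjusted p 0.0024). In Col-0 replicate 2 of the warm group was barely above the cool ones, and the rise (1.53, SE 0.47, adjusted p 0.019) was not called when any of 4 Col-0 libraries was left out. GSTU26, named after its values were seen, fell with warmth in Col-0, from 29.9, 29.6 and 30 CPM to 6.23, 3.08 and 5.3 CPM (−2.53, SE 0.34, adjusted p 0.00013).

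GSTU19 (AT1G78380) and GSTU20 (AT1G78370) are adjacent, abundant and opposed. GSTU20 is linked to aliphatic glucosinolate synthesis and, through the jasmonate-conjugating protein FIN219, to far-red light signalling. It had 422, 370.4 and 368 CPM in cool Col-0, 230.0, 113 and 159 CPM in warm Col-0, 78.2, 59 and 43.4 CPM in cool spaQ and 55.8, 45.2 and 51.9 CPM in warm spaQ. Each spaQ library lay under each Col-0 library, and warm Col-0 lay under cool Col-0. GSTU20 was lower in spaQ at 22 °C (−2.67, SE 0.25, adjusted p 8.3e-06) and at 28 °C (−1.72, SE 0.25, adjusted p 0.00019), and fell with warmth in Col-0 (−1.20, SE 0.23, adjusted p 0.0015). GSTU19, named after its values were seen, had 1176, 1087 and 1366 CPM in warm Col-0, 878, 1360.3 and 1302 CPM in cool spaQ and 2374, 1353 and 1606 CPM in warm spaQ. It rose with warmth in Col-0 (0.89, SE 0.21, adjusted p 0.0043), was higher in cool spaQ than in cool Col-0 (0.85, SE 0.21, adjusted p 0.0056), and was not called with warmth in spaQ (0.59, adjusted p 0.079). It was called higher there without replicate 2 of warm spaQ (0.74), with both libraries that stood apart left out (0.57), and with the root score as a covariate. GSTU21 and GSTU23 of the same array were low or not tested, and GSTU22 was lower in warm spaQ than in warm Col-0.

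GSTU16, GSTU17 (AT1G10370), GSTU18 (AT1G10360) and GSTU13 were each called between the genotypes at both temperatures. GSTU17, implicated in light signalling by phytochrome A, had 57.3, 52.8 and 51.9 CPM in cool Col-0, 39.4, 29.3 and 29.8 CPM in warm Col-0, 137, 149 and 150.1 CPM in cool spaQ and 145, 130.4 and 121 CPM in warm spaQ. All 6 spaQ libraries lay above all 6 Col-0 libraries, with 1.43, SE 0.13, adjusted p 6.3e-06 at 22 °C and 2.0, SE 0.13, adjusted p 4.9e-07 at 28 °C. With warmth it fell in Col-0 (−0.71, SE 0.13, adjusted p 0.001) and was not called in spaQ (−0.14, adjusted p 0.51). GSTU18, its neighbour, had 45.5, 43.3 and 44.3 CPM in cool Col-0, 27.5, 27.2 and 27.4 CPM in warm Col-0, 32.6, 30.3 and 30 CPM in cool spaQ and 36, 52.3 and 29.5 CPM in warm spaQ. Cool spaQ lay below cool Col-0 (−0.51, SE 0.17, adjusted p 0.027), while warm spaQ lay above warm Col-0 (0.53, SE 0.17, adjusted p 0.027), and they were not called when any of 5 and of 7 libraries, respectively, was left out. The difference at 28 °C was also not called with library totals or without a filter. The annotated genes overlap on the same strand, and GSTU17 shares 4.88% of its end stretches with GSTU18.

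GSTU16 (AT1G59700) had 27.7, 36.1 and 30 CPM in cool Col-0, 52.2, 56.3 and 62.2 CPM in warm Col-0, 68.3, 67.4 and 87.2 CPM in cool spaQ and 81.6, 75.1 and 69.7 CPM in warm spaQ. It rose with warmth in Col-0 (0.86, SE 0.14, adjusted p 0.00039) and was higher in spaQ at 22 °C (1.24, SE 0.14, adjusted p 3.2e-05). At 28 °C the difference (0.41, SE 0.13, adjusted p 0.035) was small, and it was not called when any of 6 libraries was left out. GSTU13 (AT1G27130), placed in the metabolism of indole glucosinolates, had 57.9, 42.5 and 54.4 CPM in cool Col-0, 69.1, 124 and 87.3 CPM in warm Col-0, 20.8, 15.7 and 15.8 CPM in cool spaQ and 26.9, 14.7 and 45.4 CPM in warm spaQ. Except for replicate 3 of warm spaQ, spaQ libraries lay below all Col-0 libraries. GSTU13 was lower in spaQ at 22 °C (−1.53, SE 0.34, adjusted p 0.0032) and at 28 °C (−1.69, SE 0.32, adjusted p 0.0014). Its rise with warmth in Col-0 (0.84, SE 0.30, adjusted p 0.039) was not called when any of 5 Col-0 libraries was left out.

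GSTU9 (AT5G62480) fell with warmth in spaQ. It had 7.54, 7.55 and 7.83 CPM in cool Col-0, 3.07, 7.19 and 4.49 CPM in warm Col-0, 11.8, 93.5 and 38.4 CPM in cool spaQ and 5.54, 4.16 and 2.76 CPM in warm spaQ. Cool spaQ exceeded all other groups, though its 3 libraries spread from 11.8 to 93.5 CPM. The change with warmth in spaQ was −3.50, SE 0.66, adjusted p 0.0059, and the genotype difference at 22 °C was 2.59, SE 0.59, adjusted p 0.0038. The fall was not called with the 6 spaQ libraries fitted by themselves (edgeR, adjusted p 0.054). GSTU8 and GSTU23 were called in no comparison, with 34.2 to 101 CPM and 1.92 to 6.11 CPM. The remaining called members were GSTU27, lower in spaQ at both temperatures, and GSTU28, which fell with warmth in Col-0. The GSTU27 difference at 22 °C was near edgeR's threshold (adjusted p 0.049). It was not called when any cool Col-0 library was left out, with DESeq2 or with the replicate block. GSTU28 was low, its Col-0 groups overlapped, and its fall was not called with DESeq2, with library totals or without a filter. Of the members not tested, GSTU14 had 3.92, 2.80 and 1.34 CPM in cool Col-0 and at most 1.35 CPM elsewhere, GSTU21 at most 1.21 CPM and GSTF14 at most 3.02 CPM.

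Between the genotypes at 22 °C, 22 of 33 members were called, 17 higher and 5 lower in spaQ, against 42.5% of all genes called, 20.7% higher and 21.7% lower. The median log2 difference was 0.54 over members and −0.05 over all genes, and the groups did not overlap for 23 members, against 58.1% of all genes. Of the phi class 6 were higher and 1, GSTF11, lower. GSTU3, GSTU10, GSTU11, GSTU12 and GSTF3 met the filter through groups other than cool Col-0, and GSTF11 through Col-0 alone. The counts and medians at 22 °C therefore describe the 33 members and are not support for a difference of the classes. At 28 °C 9 members were called, 4 higher and 5 lower, against 30.9% of all genes called, 17.4% higher and 13.5% lower, and the median was −0.16. The groups at 28 °C did not overlap for 12 members, against 40.7% of all genes. edgeR called 0 of the 8 phi genes at 28 °C, with 1 at an unadjusted p under 0.05, and DESeq2 also called 0. The calls at 28 °C depended on replicate 2 of warm spaQ. Without it, 11 members were called at 28 °C, against 34.9% of all genes, with GSTF6, GSTF7, GSTU11 and GSTU19 added as higher and GSTU16 and GSTU18 lost. GSTF3 was called lower without replicate 3 of warm spaQ, GSTF11 lower with library totals and GSTF6 higher with the root score as a covariate. With both libraries that stood apart left out, 26 members were called at 22 °C, against 45.5% of all genes, with GSTU1, GSTU7, GSTU8 and GSTU26 added. The same fit called 11 at 28 °C, against 36.9%. With library totals in place of TMM, 2 members were higher and 8 lower at 28 °C, against 36.5% of all genes called. The median over all genes then shifted from 0.03 to −0.23. The contrasts at 22 °C and 28 °C use different libraries. GSTU5, GSTU16 and GSTU17 were higher in spaQ in both, which is 3 of the 17 higher at 22 °C and 3 of the 4 higher at 28 °C. GSTU13, GSTU20 and GSTU27 were lower in both, 3 of 5 at each temperature, with GSTU27 near the threshold at 22 °C. GSTU18 changed sides.

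**Figure D3:**
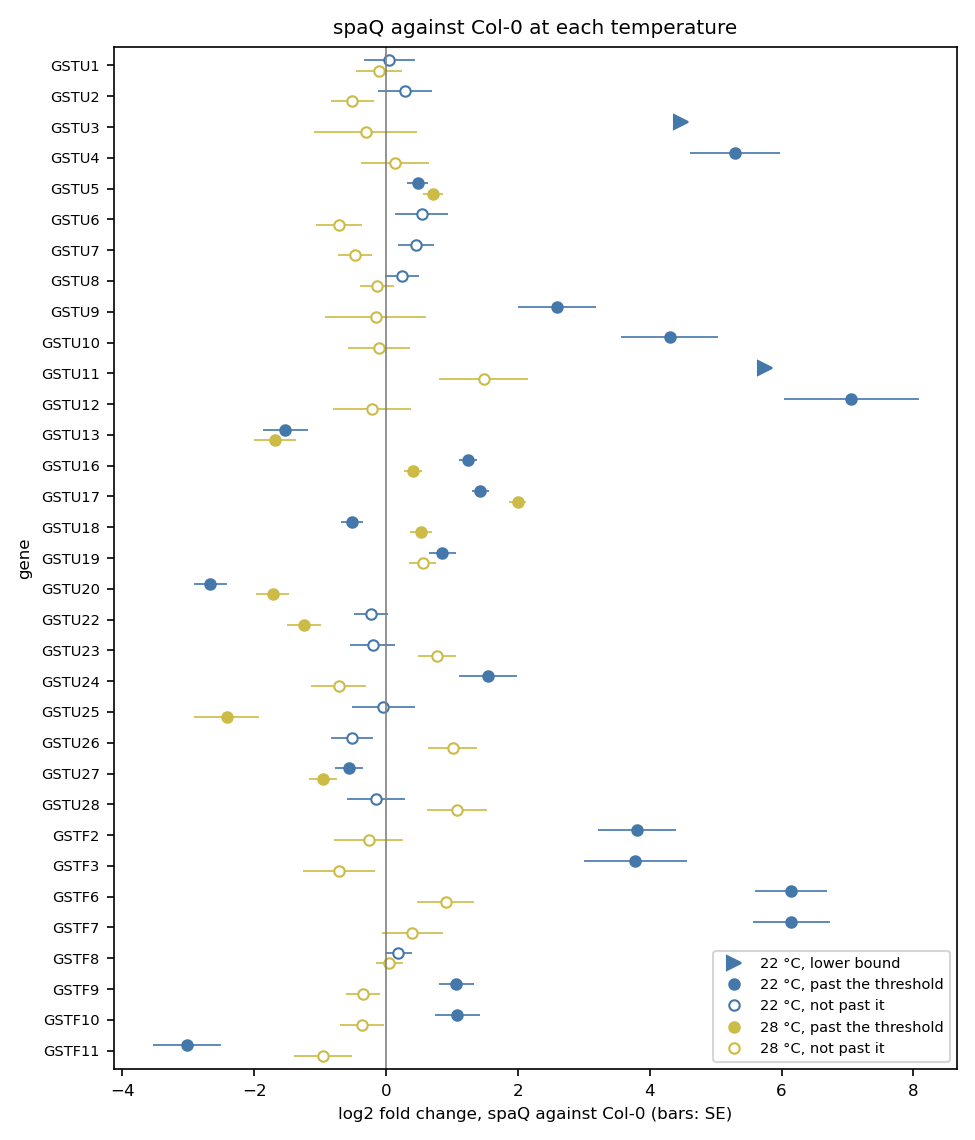
Log2 difference of spaQ against Col-0 for each tested member at 22 °C and at 28 °C, with bars of 1 SE, and triangles for the lower bounds of GSTU3 and GSTU11 at 22 °C. The median is 0.54 at 22 °C and −0.16 at 28 °C, and GSTU17 lies above 0 and GSTU20 below 0 at both.

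The warm response itself was then compared between genotypes, by subtracting the Col-0 response from the spaQ response. This difference was called for 13 of 33 members, against 11.9% of all genes, 12 of them lower in spaQ and 1, GSTU18, higher. Of all genes 5.29% were lower and 6.58% higher. The median difference was −0.93 over members and 0.06 over all genes. In the phi class 5 of 8 were lower. GSTU3, GSTU10, GSTU11, GSTU12 and GSTF3 met the filter through groups other than cool Col-0. The counts and the median of this difference therefore describe the 33 members and are not support for a difference of the classes. This contrast uses all 12 libraries, so its values for a member are not independent of those already given.

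The 12 responses that were lower in spaQ ranged widely in size. GSTF7 differed by −5.75, SE 0.71, adjusted p 0.0014, and GSTF6 by −5.24, SE 0.66, adjusted p 0.0015. GSTF2 differed by −4.07, SE 0.77, adjusted p 0.0083, GSTF9 by −1.41, SE 0.37, adjusted p 0.029, and GSTF3 by −4.49 (SE 0.97). Among tau genes the difference was −5.16, SE 0.85, adjusted p 0.0049 for GSTU4 and −0.84, SE 0.19, adjusted p 0.018 for GSTU16. It was −7.27 (SE 1.23) for GSTU12 and −4.40 (SE 0.89) for GSTU10. In spaQ the warm responses of these 9 ranged from −0.70 for GSTF9 to 0.40 for GSTU10, and the test called none of them there, with 1 of the 9 at an unadjusted p under 0.05 and with 0 called by DESeq2. Without replicate 2 of warm spaQ, GSTU10 was called higher with warmth in spaQ and GSTF9 lower, and GSTF9 was also called lower without replicate 3. With the root score as a covariate, GSTU12, GSTF6 and GSTF9 were called lower. For GSTU3 the warm Col-0 mean was at least 16.2-fold above the mean floor of the cool Col-0 libraries. In spaQ its mean was lower in the warm group, 10.7 CPM against 17.9 CPM. Both of these means lean on replicate 2, which held 0.978 CPM when warm and 39.1 CPM when cool. The other spaQ libraries went the other way, with 17 and 14.1 CPM when warm against 7.06 and 7.51 CPM when cool. The size of the GSTU3 difference between genotypes is therefore not bounded. The estimates of GSTU3, GSTU10, GSTU12 and GSTF3 rest on cool Col-0 libraries near or at the floor, and the calls of these 4 are not support for the set. GSTU24 (−2.27, SE 0.61, adjusted p 0.031) and GSTU25 (−2.38, SE 0.69, adjusted p 0.041) were nearer the threshold. GSTU18 was the member whose response was higher in spaQ (1.04, SE 0.24, adjusted p 0.016).

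The count for this difference depended on single libraries. It was 8 without any 1 of the 3 cool Col-0 libraries, against 4.89% to 5.8% of all genes, 19 without replicate 1 of cool spaQ, against 14%, and 17 without replicate 2 of warm spaQ, against 9.64%. GSTU4, GSTU10, GSTU12, GSTF2, GSTF3, GSTF6 and GSTF7 were called in all 12 fits that leave out 1 library. GSTU10, GSTU12 and GSTF3 met the filter through groups other than cool Col-0, so their calls are not support for the set. The other 6 were each lost in at least 1 of these fits. Over all 20 alternative fits, GSTU25 was lost in 10, GSTU24 in 9, GSTU3 and GSTF9 in 8, GSTU18 in 4 and GSTU16 in 2. With both libraries that stood apart left out, 20 members were called, against 13.8% of all genes, among them all 13. The added members were GSTU7, GSTU9, GSTU11, GSTU22, GSTU27 and GSTF10, all lower, and GSTU20, higher.

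**Figure D4:**
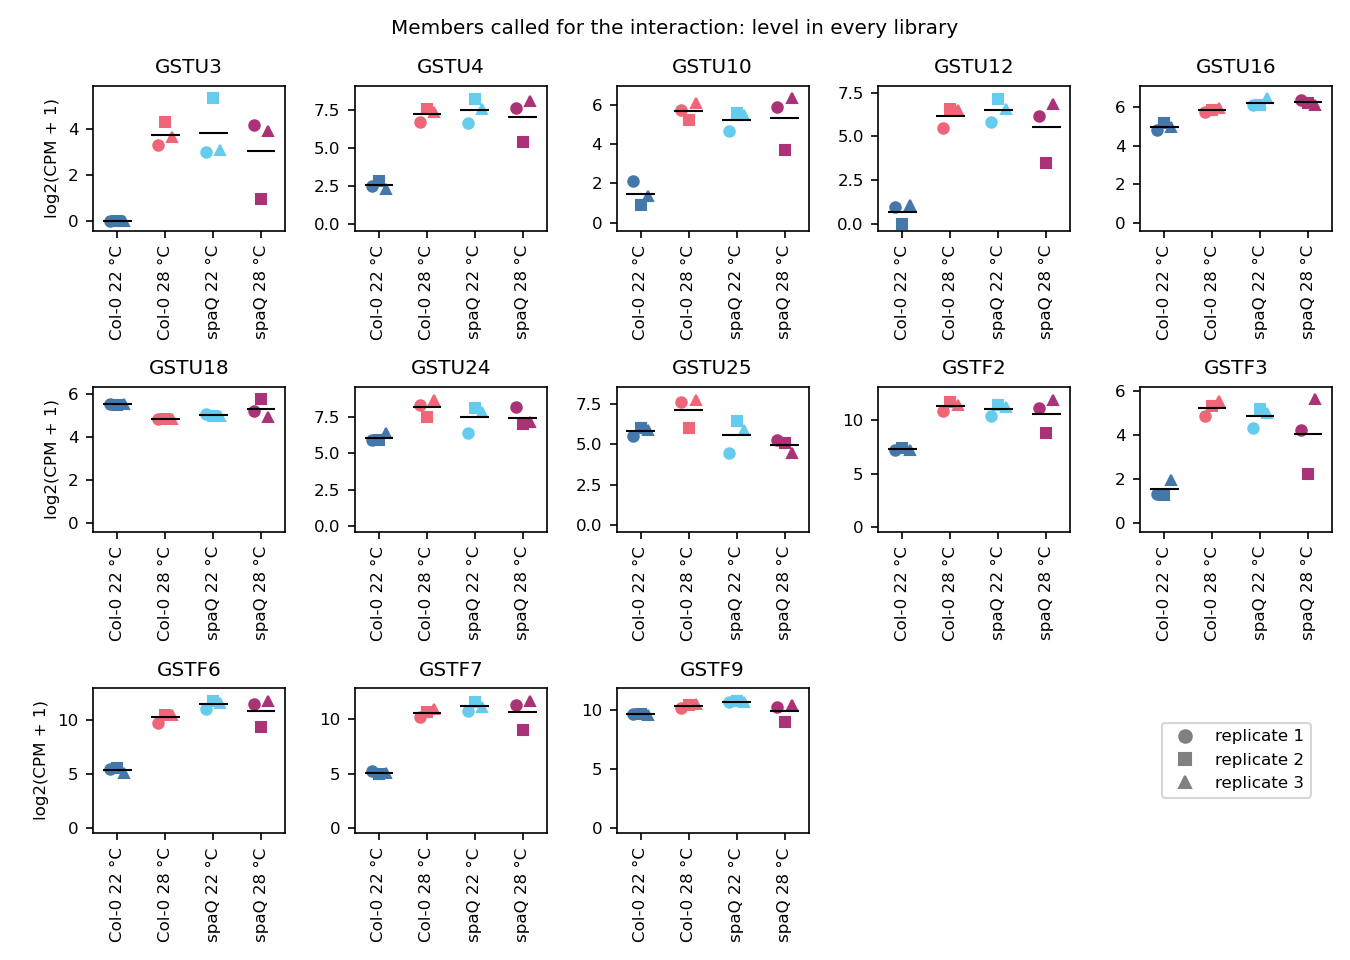
Level of the 13 members whose warm response differed between genotypes, as log2(CPM + 1), 1 point per library and a line for each group mean. For GSTF6 and GSTF7 cool Col-0 lies below the other 3 groups, and 1 point of warm spaQ, replicate 2, lies below the rest of its group.

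Root markers moved in these comparisons too. For the marker counts, the shares of all genes called were 40.8% for warmth in Col-0 and 12.4% for warmth in spaQ. They were 42.5% between genotypes at 22 °C, 30.9% at 28 °C and 11.9% for the difference of responses. Where the root score was highest, in cool Col-0, the phi sum was lowest, and replicate 1 of cool spaQ and replicate 2 of warm spaQ had the highest root score and the lowest phi sum of their groups. Of the 17 root markers tested, 15 fell with warmth in Col-0 and 9 were lower in cool spaQ than in cool Col-0, while 3 were higher in warm spaQ than in warm Col-0 and 5 had a higher warm response in spaQ. With warmth in spaQ edgeR called 0 root markers, with 3 at an unadjusted p under 0.05, and DESeq2 called 0. Summed root marker CPM ran from 2540.0 to 2692 in cool Col-0, 1227 to 1673 in warm Col-0, 1160.5 to 2031 in cool spaQ and 958 to 1360 in warm spaQ. With the root score as a covariate, 4 members were called for warmth in Col-0 in place of 26, against 4.43% of all genes. Only 2 of these 4, GSTF6 and GSTF7, were among the 26. For the difference of responses 5 were called in place of 13, against 1.78% of all genes. They were GSTU4, GSTU12, GSTU27, GSTF6 and GSTF7, of which GSTU27 was not among the 13. In Col-0 the score nearly coincides with temperature, so the fit can hardly separate them. With the score, 13 members were called for warmth in spaQ, 12 for the genotypes at 22 °C and 14 at 28 °C, against 17.4%, 15.5% and 38.2% of all genes. The part of root content in these results was not tested. Of the 21 markers, NRT2.1 alone was at 0 in a whole group, cool spaQ. Green tissue markers moved too: 11 of 12 fell with warmth in Col-0, and in cool spaQ against cool Col-0 3 were higher and 7 lower. With warmth in spaQ 1 rose and 4 fell, at 28 °C 5 were higher and 3 lower in spaQ, and 6 had a higher warm response in spaQ. The part of green tissue in the members' results was not tested.

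**Figure D5:**
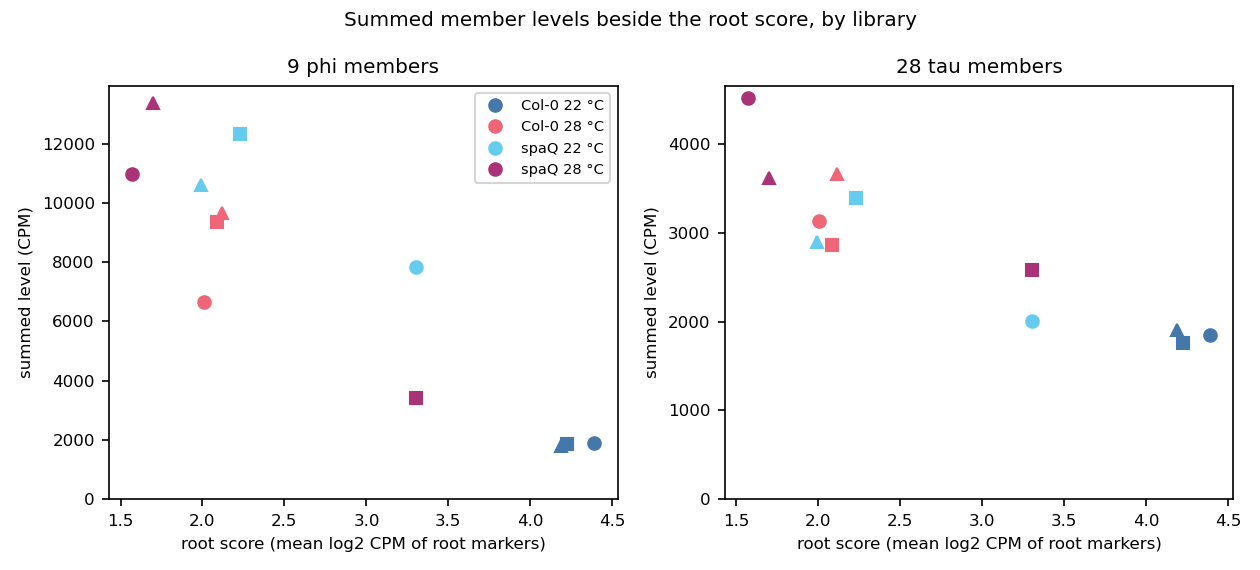
Root score of each library, in log2 CPM, against the summed CPM of the 9 phi members and of the 28 tau members, with a symbol for each replicate number. Cool Col-0 lies at 4.19 to 4.39 with 1777 to 1886 CPM of phi members, and replicate 2 of warm spaQ lies at 3.31 with 3411 CPM.

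Genes that supply, move or regulate the same chemistry were counted in 4 lists. Of all genes, 40.8% were called for warmth in Col-0 and 12.4% for warmth in spaQ. The shares were 42.5% between genotypes at 22 °C, 30.9% at 28 °C and 11.9% for the difference of responses. Of 16 tested genes of glutathione supply and the other transferase classes, 9 rose and 3 fell with warmth in Col-0, led by GSTL1 (2.59) and GSTL2 (−1.16), genes of the lambda class. In spaQ 1 rose, DHAR2 (1.5), a dehydroascorbate reductase, and 2 fell, led by GR2 (−0.78), a plastid glutathione reductase. At 22 °C 7 were higher in spaQ, led by the phi gene GSTF5 (4.59), and at 28 °C 6 were higher, led by GSTF5 (1.85), and 2 lower, led by GSTL1 (−2.34). The response in spaQ was higher for 2, led by GSTL2 (0.68), and lower for 3, led by GSTL1 (−2.99). Medians were 0.44, −0.22, 0.37, 0.23 and −0.41 for the 5 comparisons. The list had 75%, 18.8%, 43.8%, 50% and 31.2% called in the same order. Its share at 22 °C was near that of all genes.

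Of 6 genes for conjugate transport and breakdown, 5 rose with warmth in Col-0, led by ABCC3 (2.16), a vacuolar carrier of conjugates, and 5 were higher in cool spaQ, again led by ABCC3 (1.82). With warmth in spaQ edgeR called 0, with 1 at an unadjusted p under 0.05, and between genotypes at 28 °C it called 0, with 0 at that level, and DESeq2 called 0 in both. The response in spaQ was lower for 4, led by ABCC3 (−1.98). Shares called of this list were 83.3%, 0%, 83.3%, 0% and 66.7% in the order of comparisons given before. Those of all genes were 40.8%, 12.4%, 42.5%, 30.9% and 11.9%. Of 8 TGA and GRAS regulators, 4 rose with warmth in Col-0, led by GRXC9 (3.26), a glutaredoxin that binds TGA factors, and TGA1 fell (−0.65). With warmth in spaQ edgeR called 0 regulators, with 2 at an unadjusted p under 0.05, and DESeq2 called 0. At 22 °C 3 were higher in spaQ, led by GRXC9 (2.04), at 28 °C TGA1 was higher (0.41), and GRXC9 alone had a lower response in spaQ (−2.19). The regulators' shares called were 62.5%, 0%, 37.5%, 12.5% and 12.5% in the same order. Apart from warmth in Col-0, these lay near or under the shares of all genes.

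The detoxification list had calls for warmth in both genotypes. All 11 genes for handling foreign compounds and oxylipins rose with warmth in Col-0, led by the glucosyltransferase UGT73B5 (2.93), with a median of 1.25, and 7 rose in spaQ, led by the cytochrome P450 CYP81D11 (2.17), with a median of 0.91. At 22 °C 5 were higher in spaQ, led by UGT73B4 (2.32), and at 28 °C 3 were, led by the alkenal reductase AER (1.11). The response in spaQ was lower for 2, led by UGT73B4 (−2.14). Shares called of these 11 were 100%, 63.6%, 45.5%, 27.3% and 18.2% in the same order of comparisons. Those of all genes were 40.8%, 12.4%, 42.5%, 30.9% and 11.9%, so the list was near all genes at 22 °C and at 28 °C.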

How the data were processed

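The deposited values were whole-number counts per gene, one column per library, raw and with replicates not pooled. FastQC, Bowtie2, TopHat, HTSeq and edgeR are named in the submitters' processing notes. Versions, settings, the genome build and the strand option are not given in the sources used here. The 5 HTSeq summary lines of the count table were left out, and ambiguous reads amounted to 0.453% to 0.616% of a library. Per the labels' protocols, 3′ Tag-Seq was used. Counts were filtered with filterByExpr, scaled with TMM (factors 0.917 to 1.16) and tested with edgeR 4.0.16 (R 4.3.3, limma 3.58.1): glmQLFit with 1 coefficient per group over 12 libraries, two-sided quasi-likelihood tests, Benjamini-Hochberg adjustment over 17841 genes, threshold 0.05. The SE was derived from estimate and F value. Where no library of a group exceeded 3 counts, folds of the other group's mean were bounds against the mean of that group's floors. The members and gene lists were chosen with earlier results of these data known. All 37 identifiers matched locus tags of RefSeq TAIR10.1, used for names, neighbours and overlaps. No coordinates or sequences are given.

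Values in every library are given for members called for the difference of the warm responses, for the 4 largest called changes in each comparison of 2 groups among members with a mean of at least 10 CPM, and for the 4 highest means. Alternatives were DESeq2 size factors, library totals, no low-count filter, a minimum mean of 10 counts, DESeq2 1.42.0 (Wald test), only the libraries compared, the replicate block, the root score as a covariate and leaving out each library. Leaving out replicate 1 of cool spaQ with replicate 2 of warm spaQ was added after seeing the data. The procedure was tested on simulated data. Replicates differed by more than counting noise.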

Additional observations from a re-analysis of the deposited data

Results flagged for a closer look

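The 13 members listed here had a warm response that differed between spaQ and Col-0 by edgeR's test of the difference itself (adjusted p under 0.05). All values are log2 responses of spaQ minus those of Col-0. In the phi class the difference was −5.75 for GSTF7, −5.24 for GSTF6, −4.49 for GSTF3, −4.07 for GSTF2 and −1.41 for GSTF9. In the tau class it was −7.27 for GSTU12, −5.16 for GSTU4, −4.40 for GSTU10, −2.38 for GSTU25, −2.27 for GSTU24 and −0.84 for GSTU16. For GSTU3 the fitted value was −9.61, which rests on 0 counts in cool Col-0 and is no bound. GSTU3, GSTU10, GSTU12 and GSTF3 met the filter through groups other than cool Col-0, and their calls are not support for the set. GSTU18 alone had a higher response in spaQ (1.04).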

How the results depend on the processing

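With the root score as a covariate, 4 members were called for warmth in Col-0 (26 without it) and 13 for warmth in spaQ (4). For the genotypes 12 were called at 22 °C (22) and 14 at 28 °C (9), and for the difference of responses 5 (13). Of these, 2, 4, 11, 9 and 4 were also called without the score, in this order from warmth in Col-0. With the score the shares of all genes were 4.43%, 17.4%, 15.5%, 38.2% and 1.78% in this order. GSTF9 turned to −0.41 for warmth in Col-0 under it, the only reversal among the results of named members, and the cause was not tested. When only the 6 spaQ libraries were fitted, 0 members were called for warmth in spaQ, against 2.64% of all genes. Without replicate 1 of cool spaQ and replicate 2 of warm spaQ, 11 members were called for warmth in spaQ, against 14.9% of all genes. For the difference of responses 20 were called, against 13.8%. Leaving out 1 library gave 20 to 27, 3 to 13, 17 to 23, 7 to 12 and 8 to 19 members in the same order. The shares of all genes in these fits were 31.9% to 46.4%, 5.98% to 22.1%, 33% to 46.8%, 23.6% to 34.9% and 4.89% to 15.5%. The split at 28 °C was 2 higher and 6 lower with no filter (21.9% of all genes called). It was 2 and 5 with only the libraries compared (23.3%). Library totals shifted the median over all genes from −0.02 to 0.19 for warmth in Col-0 and from 0.06 to −0.12 for the difference of responses.

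Of 61 called results of named members, all 61 were kept with DESeq2's size factors, with its Wald test and with a mean of at least 10 counts, 59 with no filter, 58 with library totals and 27 with the root score. Leaving out 1 library kept 660 of 732. Fitting only the libraries compared kept 42 of 48 and was not run for the difference of responses, which uses all 12. Depth limits members near the floor, such as GSTU3, GSTU11, GSTU12 and GSTU28.

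The labels do not say that equal replicate numbers share a batch. Across genes, 18 pairs of same-numbered libraries correlated between −0.365 and 0.178, with a mean of −0.043. With 3 libraries per group, these values cannot exclude a shared batch. With the replicate block 24, 3, 21, 8 and 12 members were called, against 37.5%, 8.9%, 39%, 28% and 7.53% of all genes. Of the 61 results, 54 were kept.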
